A study of Mus musculus with 12 samples.

Results

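The genes of the motile cilium were read out by RNA-seq of lungs from C57/Bl6 mice in their first days of life. The list holds 34 genes, chosen by name: regulators of multiciliated cells, axonemal dyneins and their assembly factors, axoneme rulers, radial spoke, central pair and tektin genes, and a pair of other cilium genes. Of these, 32 had a row in the deposited count table of 23478 genes, and all 32 were among the 15761 genes tested. The other two, Dnah3 and Dnah12, which encode inner arm dynein heavy chains, were not analysed here.

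Motile cilia clear mucus from the airways. They stand in tufts on multiciliated cells, which share the conducting airway epithelium with club and other secretory cells and are absent from the alveoli. Each cilium is built on an axoneme in which outer and inner dynein arms slide doublet microtubules against each other, while radial spokes, a central pair and a ruler set the pattern of the beat. The factors Mcidas, Foxj1 and the RFX proteins switch this program on, and the cyclin Ccno is needed to multiply centrioles. Loss of many of these genes in people causes primary ciliary dyskinesia.

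Each pup received an intraperitoneal injection on day 0, either aurothioglucose (ATG) at 25 mg/kg or saline; ATG is a gold(I) drug known to block thioredoxin reductase. Pups then stayed in more than 95% oxygen (hyperoxia) for 72 h or in room air. The groups were ATG hyperoxia, saline hyperoxia, ATG room air and saline room air, with 3 libraries each, and all were made from lungs after the lavage fluid was taken. No label ties a library to an animal or litter, so the p-values reflect the spread among these samples alone, which may be technical.

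Libraries held 14331749 to 20486735 counts. Levels are given as CPM, the count scaled to library size with TMM factors. The libraries carried the markers of lung: the surfactant gene Sftpc stood at 5459 to 7792 CPM, and the secretory cell gene Scgb1a1 at 8239 to 16648 CPM. The basal cell keratin Krt5 stayed at 3.58 CPM or less, with no count in ATG room air 2 and 3. Of the other basal cell markers, Krt14 and Trp63 stayed at 1.41 and 2.86 CPM or less. Krt15 stood at 5.97 to 29.7 CPM and Ngfr at 3.29 to 8.93 CPM. All 5 were the highest of their group in ATG hyperoxia 2 and in saline hyperoxia 2. Some hyperoxia libraries also held higher levels of heart muscle, skeletal muscle or thymocyte genes, whose source was not tested. The summed level of 6 heart muscle genes was 6564 CPM in ATG hyperoxia 2 and 2970 CPM in saline hyperoxia 2, against 397 to 919 CPM elsewhere, and that of 6 skeletal muscle genes was 354 CPM in saline hyperoxia 1, against 20.5 to 62.0 CPM elsewhere. That of 4 thymocyte genes reached 58.0 CPM (saline hyperoxia 2) and 22.6 CPM (saline hyperoxia 3), against 5.24 to 14.6 CPM elsewhere.

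The cilia genes were detected in every library. The median member averaged 19.1 CPM, with a range of 4.66 CPM (Tekt4) to 258 CPM (Tppp3), beside a median of 19.7 CPM over all genes tested. On a scale of CPM per kilobase of transcript, Tppp3 stood at 185, Dynlrb2 at 24.7, Foxj1 at 19.8, Rsph1 at 18.4, Rsph4a at 11.8 and Rsph9 at 11.1, while the inner arm heavy chains Dnah2 and Dnah7a stood at 0.97 and 0.70. Tppp3, which promotes tubulin polymerization, is also expressed outside the ciliated epithelium. In bulk lung, fewer ciliated cells and less RNA per ciliated cell cannot be told apart, and this holds for each level below. The median biological coefficient of variation was 17.6% over the members (10.3% to 29.0%) and 15.0% over all genes tested.

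**Figure D1:**
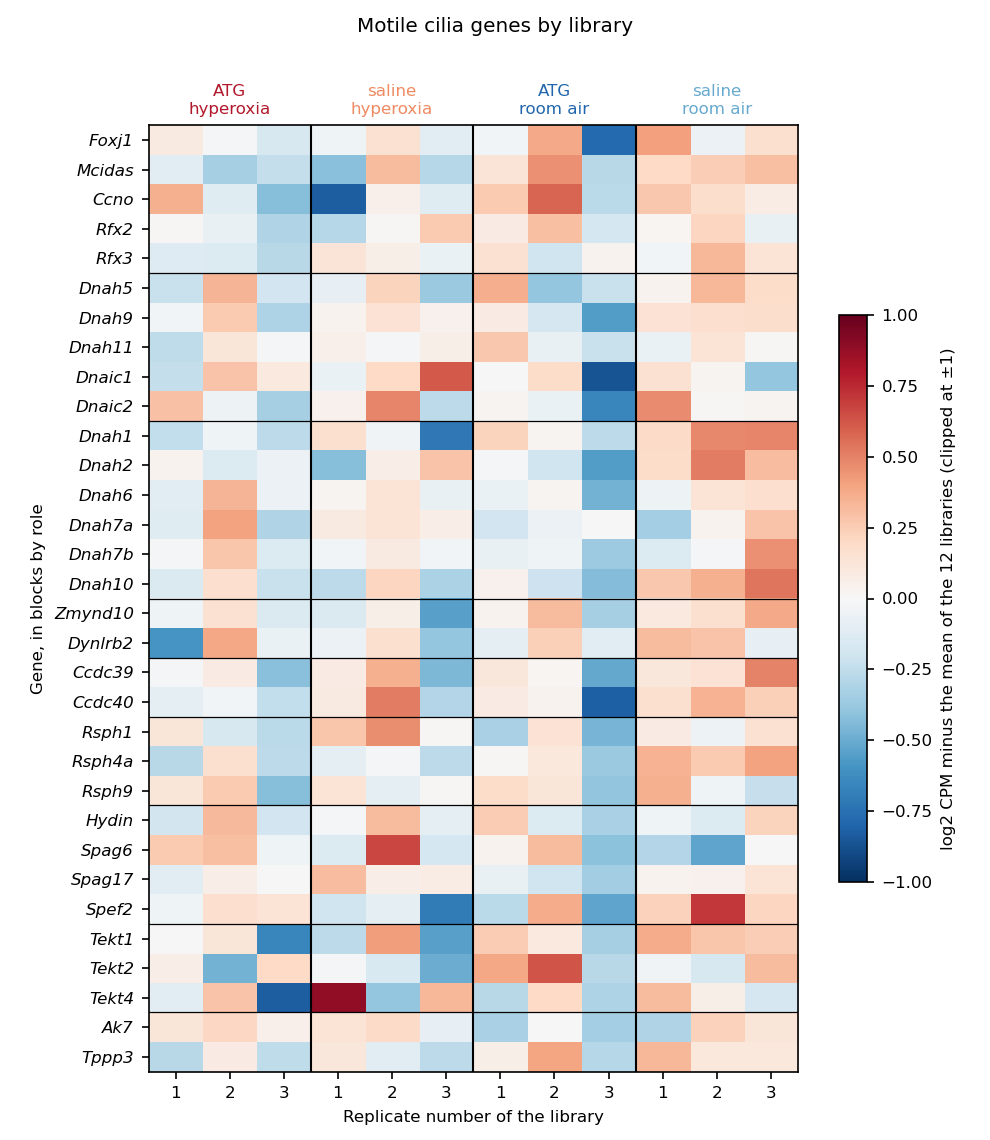
Level of each of the 32 motile cilia genes in each of the 12 libraries, as log2 CPM minus the gene's mean over the 12 libraries (colour, clipped at ±1). Genes run down the page in blocks by role, and libraries run across in 4 groups of 3. The column of ATG room air 3 is blue in most rows: it held the lowest of the 12 values for 16 of the 32 genes.

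No regulator of the multiciliated cell passed the threshold in any comparison. Foxj1 (chr11:116330704-116335499, minus strand, 3 exons), the forkhead factor that switches on the motile cilium program, stood at 54.3, 50.7 and 45.7 CPM in ATG hyperoxia, at 49.6, 56.6 and 47.4 CPM in saline hyperoxia, at 50.05, 66.4 and 29.7 CPM in ATG room air and at 67.8, 49.02 and 56.96 CPM in saline room air. Its lowest and second highest values came from the same group, ATG room air, and all 4 groups overlapped. Its log2 fold change was -0.03 (SE 0.21) for ATG against saline in hyperoxia, -0.25 in room air, 0.05 for hyperoxia against room air after ATG and -0.18 after saline, with adjusted p of 0.996, 0.914, 0.922 and 0.673 by edgeR's quasi-likelihood test with Benjamini-Hochberg adjustment over all genes tested, as for every adjusted p below unless DESeq2 is named. Mcidas, the coactivator that starts the multiciliated fate, stood at 7.89, 6.73 and 7.19 CPM in ATG hyperoxia, at 6.33, 10.6 and 6.94 CPM in saline hyperoxia, at 9.27, 11.6 and 7.01 CPM in ATG room air and at 9.72, 10.1 and 10.4 CPM in saline room air. Saline hyperoxia 2 was the only hyperoxia library above 10 CPM, against 3 of the 6 room air libraries. The averaged log2 fold change for hyperoxia was -0.35 (SE 0.16) (adjusted p = 0.135).

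Ccno, a cyclin needed to multiply centrioles, lies beside Mcidas on chromosome 13 (Ccno at chr13:112987802-112990778, plus strand, 3 exons; Mcidas at chr13:112993581-113000394, plus strand, 7 exons). Ccno stood at 9.05, 6.504 and 5.27 CPM in ATG hyperoxia, at 4.01, 7.34 and 6.51 CPM in saline hyperoxia, at 8.48, 10.6 and 5.87 CPM in ATG room air and at 8.56, 8.004 and 7.47 CPM in saline room air. After saline the 3 hyperoxia libraries lay below the 3 room air libraries, whereas after ATG the groups overlapped; the log2 fold changes were -0.43 (SE 0.28) after saline and -0.26 (SE 0.27) after ATG, and neither passed (adjusted p = 0.39 and 0.607). Rfx3, an RFX factor that is also expressed in cells without motile cilia, stood at 69.9, 69.7 and 63.1 CPM in ATG hyperoxia, at 83.7, 79.5 and 72.9 CPM in saline hyperoxia, at 84.9, 66.7 and 78.3 CPM in ATG room air and at 74.9, 96.2 and 84.3 CPM in saline room air. In hyperoxia its 3 ATG values lay below its 3 saline values, a log2 difference of -0.22 (SE 0.11) with adjusted p = 0.852. Rfx2, its relative, lay between 20.9 and 31.7 CPM over the 12 libraries, with log2 fold changes of -0.20 to 0.02 in the 4 comparisons.

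RFX factors bind a promoter element called the X-box. In RefSeq promoters of GRCm38.p6, taken from 250 bases before to 50 after each gene's start, 27 member genes had 30 promoters. The X-box core GTTGCC, searched on both strands, was in 16 of 30 member promoters (53.3%), in 41.2% of the 102 promoters of other cilia genes, in 12.9% of the promoters of all genes tested and in 12.5% of all promoters. The full palindromic X-box was searched as GTTNCC and its reverse complement GGNAAC with exactly 2 free bases between them, which can contain that core. This exact pattern was in 0 of 30 member promoters, in 3.92% of those of other cilia genes, in 0.511% for genes tested and in 0.451% of all promoters. Other spacings and imperfect repeats were not searched, so the count does not show that member promoters lack an X-box. The forkhead core TGTTTA, also searched on both strands, was in 16.7% of member promoters, 16.7% for other cilia genes, 9.15% for genes tested and 13.4% of all promoters. Member promoters had a median GC content of 55.8%, against 60% for genes tested and 52.7% for all. A match is a run of letters and not a measured binding site.

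Member stretches of 60 bases are shown to let the core be seen in its surroundings, each upstream of an annotated start (5′ to 3′ on the gene's strand). Capitals mark GTTGCC or its reverse complement GGCAAC.
Rfx2: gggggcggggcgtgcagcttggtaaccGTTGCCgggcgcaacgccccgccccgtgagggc
Ccno: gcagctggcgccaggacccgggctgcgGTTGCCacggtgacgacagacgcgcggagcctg
Tekt1: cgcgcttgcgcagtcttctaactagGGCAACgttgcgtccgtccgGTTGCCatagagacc
Tekt2: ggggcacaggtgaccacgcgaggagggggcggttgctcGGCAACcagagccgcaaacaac
Dnaic2: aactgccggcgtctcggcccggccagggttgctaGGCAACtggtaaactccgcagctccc
The stretches lie at chr17:56831092-56831151 (minus strand), chr13:112987556-112987615 (plus strand), chr11:72361883-72361942 (minus strand), chr4:126325689-126325748 (minus strand) and chr11:114727359-114727418 (plus strand), in the same order. None of the first 4 overlaps an annotated exon, and 11 bases of the last do. The regulator genes Rfx2 and Ccno hold the core further upstream, within 250 bases of the start. Tekt1, Tekt2 and Dnaic2 hold it within 60 bases of the start, and Tekt1 holds it on both strands.

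Exact matches to the full X-box pattern were in 4 promoters of cilia genes outside the list, shown in capitals for comparison. The pattern reads the same on both strands, and Dnaaf6 is listed as Pih1d3 in the count table.
Dnaaf6: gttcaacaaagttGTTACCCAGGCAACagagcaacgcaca
Iqca: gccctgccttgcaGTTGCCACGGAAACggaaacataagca
Pifo: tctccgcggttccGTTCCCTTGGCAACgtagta
Ccdc151: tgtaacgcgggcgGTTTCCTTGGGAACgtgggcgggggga
They lie at chr1:31222767-31222806 (plus strand), chr1:90153510-90153549 (minus strand), chr3:106001498-106001530 (minus strand) and chr9:22002642-22002681 (minus strand), in the same order. Of these, Pih1d3 and Ccdc151 encode dynein arm assembly and docking factors, and Pifo acts in cilium disassembly.

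No outer arm dynein gene passed the threshold in any comparison. Dnah5, the heavy chain most often mutated in human ciliary dyskinesia, stood at 49.4, 73.2 and 50.4 CPM in ATG hyperoxia, at 54.6, 67.2 and 44.6 CPM in saline hyperoxia, at 74.1, 44.1 and 49.4 CPM in ATG room air and at 59.2, 72.7 and 65.4 CPM in saline room air. All 4 groups overlapped. Dnah9, which in human cilia occupies the distal outer arms, stood at 39.1, 47.6 and 32.1 CPM in ATG hyperoxia, at 40.8, 43.9 and 40.9 CPM in saline hyperoxia, at 42.1, 35.5 and 27.01 CPM in ATG room air and at 43.9, 44.7 and 44.97 CPM in saline room air. In room air its 3 ATG values lay below its 3 saline values, a log2 difference of -0.35 (SE 0.15) with unadjusted p = 0.0374 and adjusted p = 0.818; in hyperoxia the difference was -0.08 and the groups overlapped. The third heavy chain of the arm, Dnah11, varied little, between 28.8 and 41.2 CPM, and its largest log2 fold change in the 4 comparisons was -0.07, for ATG in hyperoxia.

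The intermediate chains anchor the outer arm motor. Dnaic1 stood at 5.63, 8.07 and 7.09 CPM in ATG hyperoxia, at 6.33, 7.64 and 10.2 CPM in saline hyperoxia, at 6.64, 7.54 and 3.65 CPM in ATG room air and at 7.39, 6.76 and 5.09 CPM in saline room air. Its highest value came from saline hyperoxia 3 and its lowest from ATG room air 3, and its averaged log2 fold change for hyperoxia was 0.28 (SE 0.20). Dnaic2 stood at 12.1, 9.53 and 7.83 CPM in ATG hyperoxia, at 10.1, 13.8 and 8.22 CPM in saline hyperoxia, at 10.1, 9.42 and 6.29 CPM in ATG room air and at 13.7, 9.93 and 10.05 CPM in saline room air. Here too ATG room air 3 was lowest, and neither gene passed in any of the 7 contrasts, with adjusted p of 0.352 or more.

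Among the inner arm dyneins, Dnah10, Dnah1 and Dnah2 differed most from their level in saline room air. Dnah10 (chr5:124725085-124834308, plus strand, 79 exons), a heavy chain of the f-type inner arm, stood at 18.3, 22.7 and 17.3 CPM in ATG hyperoxia, at 16.8, 23.4 and 16.3 CPM in saline hyperoxia, at 20.8, 17.5 and 14.97 CPM in ATG room air and at 24.4, 25.9 and 29.3 CPM in saline room air. The 3 saline room air values were the 3 highest of the 12, and the other groups overlapped one another. Its log2 fold change was -0.58 (SE 0.17) for ATG in room air (unadjusted p = 0.00454, adjusted p = 0.818), 0.04 (SE 0.17) for ATG in hyperoxia, -0.49 (SE 0.17) for hyperoxia after saline (adjusted p = 0.0911) and 0.13 (SE 0.17) for hyperoxia after ATG. The difference between the ATG effects in hyperoxia and in room air was 0.62 (SE 0.24), with unadjusted p = 0.0224 and adjusted p = 1. Without saline hyperoxia 2, which held the highest hyperoxia value, the log2 fold change after saline was -0.67 and passed (adjusted p = 0.03, over alternatives 0.0174 to 0.274).

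Dnah1 (chr14:31260375-31325891, minus strand, 78 exons), another inner arm heavy chain, stood at 13.6, 15.8 and 13.5 CPM in ATG hyperoxia, at 18.1, 15.8 and 9.86 CPM in saline hyperoxia, at 18.9, 16.5 and 13.5 CPM in ATG room air and at 18.5, 22.6 and 22.7 CPM in saline room air. After saline its hyperoxia values lay below its room air values, with a log2 fold change of -0.54 (SE 0.20) (adjusted p = 0.11), and after ATG it was -0.19 (SE 0.20). The average over injections was -0.37 (SE 0.14), with adjusted p = 0.0785, the smallest of the members in that contrast; without saline hyperoxia 1 it was -0.45 and passed (adjusted p = 0.0351, over alternatives 0.00656 to 0.189, the lowest from a fit with 1 saline hyperoxia library). Without saline hyperoxia 3, its lowest library, the log2 fold change after saline was -0.33. Dnah2 (chr11:69420807-69549108, minus strand, 86 exons) stood at 13.3, 11.9 and 12.5 CPM in ATG hyperoxia, at 9.73, 13.7 and 15.9 CPM in saline hyperoxia, at 12.9, 11.4 and 8.86 CPM in ATG room air and at 14.9, 18.6 and 16.2 CPM in saline room air. In room air every ATG value lay below every saline value, with a log2 difference of -0.59 (SE 0.19) (unadjusted p = 0.00839, adjusted p = 0.818), against -0.06 (SE 0.19) in hyperoxia.

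**Figure D2:**
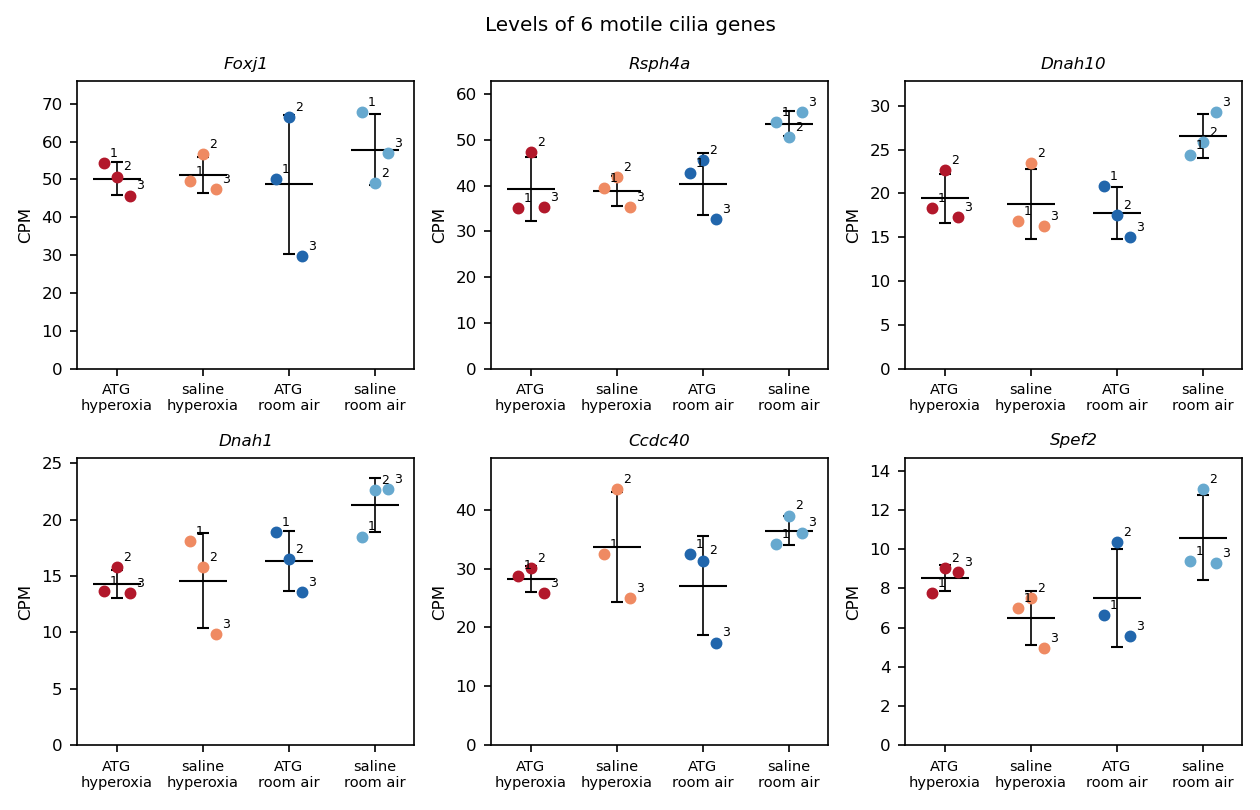
CPM of 6 motile cilia genes in each of the 12 libraries (points, numbered by replicate), with the mean and SD of each group of 3 (bars). For Rsph4a, Dnah10 and Ccdc40 the saline room air libraries span 50.7 to 56.1, 24.4 to 29.3 and 34.2 to 39.0 CPM, and ATG room air 3 lies at 32.7, 15.0 and 17.4 CPM.

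Dnah7a and Dnah7b are near-identical copies, both on mouse chromosome 1, and their levels are uncertain. Of the 75-base windows of the transcript, 27.8% of those of Dnah7a and 34.3% of those of Dnah7b also occur in another gene, mostly in each other or in Dnah7c. Dnah7a stood at 7.83, 11.2 and 6.897 CPM in ATG hyperoxia, at 9.06, 9.34 and 8.89 CPM in saline hyperoxia, at 7.43, 8.14 and 8.504 CPM in ATG room air and at 6.71, 8.69 and 10.4 CPM in saline room air. Dnah7b stood at 22.2, 27.4 and 20.5 CPM in ATG hyperoxia, at 22.1, 23.97 and 22.2 CPM in saline hyperoxia, at 21.4, 21.9 and 17.5 CPM in ATG room air and at 20.5, 22.3 and 30.96 CPM in saline room air. In neither gene did the groups separate in any comparison. Dnah6, the last inner arm chain measured, lay between 48.8 CPM (ATG room air 3) and 85.7 CPM (ATG hyperoxia 2).

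The genes that assemble the arms or set their spacing did not pass in any comparison. Zmynd10, which helps to preassemble dynein arms in the cytoplasm, stood at 12.3, 14.1 and 11.5 CPM in ATG hyperoxia, at 11.5, 13.2 and 8.71 CPM in saline hyperoxia, at 12.96, 15.7 and 10.1 CPM in ATG room air and at 13.6, 14.1 and 16.5 CPM in saline room air. After saline its hyperoxia values lay below its room air values, a log2 fold change of -0.40 (SE 0.19) with adjusted p = 0.234. Dynlrb2, a roadblock-type dynein light chain, stood at 8.495, 16.7 and 12.2 CPM in ATG hyperoxia, at 12.2, 14.3 and 9.74 CPM in saline hyperoxia, at 11.97, 15.1 and 11.8 CPM in ATG room air and at 15.9, 15.6 and 12.1 CPM in saline room air. Its lowest and highest values were both from ATG hyperoxia. Ccdc39, which forms the ruler of the axoneme repeat with Ccdc40, stood at 15.7, 16.9 and 11.97 CPM in ATG hyperoxia, at 16.9, 20.4 and 11.7 CPM in saline hyperoxia, at 17.3, 16.1 and 11.2 CPM in ATG room air and at 17.2, 17.6 and 22.5 CPM in saline room air. Of its exon bases, 34.2% overlap Ttc14 on the opposite strand; the counting's use of strand is not given in the sources used here, so its level is uncertain. Ccdc40 stood at 28.8, 30.1 and 25.8 CPM in ATG hyperoxia, at 32.5, 43.6 and 25.02 CPM in saline hyperoxia, at 32.5, 31.4 and 17.4 CPM in ATG room air and at 34.2, 39.03 and 36.1 CPM in saline room air. In room air its ATG values lay below its saline values, a log2 difference of -0.43 (SE 0.21) with adjusted p = 0.845. Its value in ATG room air 3 was the lowest of the 12.

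The radial spoke gene Rsph4a came nearest to the threshold. Rsph4a (chr10:33905111-33916021, plus strand, 6 exons), a protein of the spoke head, stood at 35.03, 47.3 and 35.3 CPM in ATG hyperoxia, at 39.5, 41.9 and 35.3 CPM in saline hyperoxia, at 42.7, 45.6 and 32.7 CPM in ATG room air and at 53.9, 50.7 and 56.1 CPM in saline room air. The 3 saline room air values were the 3 highest of the 12, above every library that had received ATG, hyperoxia or both. For hyperoxia after saline its log2 fold change was -0.46 (SE 0.14) (95% interval -0.76 to -0.16) with adjusted p = 0.055, and after ATG it was -0.04 (SE 0.14) with adjusted p = 0.894. By DESeq2 the value after saline passed (log2 fold change -0.46, adjusted p = 0.0208). It passed in 7 of 19 alternatives, which gave adjusted p of 0.0158 to 0.184 and log2 fold changes of -0.59 to -0.39. It passed without ATG room air 3 (adjusted p = 0.0337) and without ATG hyperoxia 2 (adjusted p = 0.0263). Those libraries lie outside that comparison and enter it through the filter, the scaling and the estimate of spread. For ATG the log2 difference of Rsph4a was 0.01 (SE 0.14) in hyperoxia and -0.41 (SE 0.14) in room air (unadjusted p = 0.0111, adjusted p = 0.818).

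Rsph1, also of the spoke head, did not share that order. It stood at 23.5, 19.3 and 17.9 CPM in ATG hyperoxia, at 26.1, 29.7 and 21.8 CPM in saline hyperoxia, at 17.2, 23.8 and 15.6 CPM in ATG room air and at 22.9, 20.8 and 23.99 CPM in saline room air. The 2 highest values came from saline hyperoxia. Its log2 difference for ATG was -0.35 (SE 0.17) in hyperoxia and -0.26 (SE 0.17) in room air, with the average at -0.31 (SE 0.12) (unadjusted p = 0.0231, adjusted p = 0.483). Rsph9 lay between 7.88 and 13.5 CPM, with log2 fold changes within -0.05 to 0.02 in the 4 comparisons.

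Among genes of the central pair, Spef2 held the largest fitted difference of all members. Spef2 (chr15:9578193-9748868, minus strand, 33 exons), a protein of the central pair apparatus, stood at 7.78, 9.03 and 8.82 CPM in ATG hyperoxia, at 6.998, 7.52 and 4.93 CPM in saline hyperoxia, at 6.64, 10.4 and 5.57 CPM in ATG room air and at 9.38, 13.1 and 9.29 CPM in saline room air. After saline each hyperoxia value lay below each room air value, and in hyperoxia each ATG value lay above each saline value. The log2 fold changes were -0.71 (SE 0.25) for hyperoxia after saline (adjusted p = 0.0922, over alternatives 0.0504 to 0.316), 0.19 (SE 0.25) after ATG, 0.40 (SE 0.25) for ATG in hyperoxia and -0.50 (SE 0.25) in room air. The interaction was 0.89 (SE 0.35), with unadjusted p = 0.0221 and adjusted p = 1. Hydin, a giant protein of a central pair projection, stood at 47.9, 68.2 and 47.6 CPM in ATG hyperoxia, at 53.9, 67.7 and 50.7 CPM in saline hyperoxia, at 64.6, 49.4 and 43.3 CPM in ATG room air and at 52.8, 49.5 and 63.4 CPM in saline room air. All its groups overlapped. Spag17, of the same apparatus, stood at 23.6, 26.8 and 25.6 CPM in ATG hyperoxia, at 31.7, 26.7 and 26.97 CPM in saline hyperoxia, at 24.3, 22.3 and 20.1 CPM in ATG room air and at 26.2, 26.3 and 28.1 CPM in saline room air. Its room air ATG values lay below the saline ones; averaged over oxygen the log2 difference was -0.22 (SE 0.08), with unadjusted p = 0.0169 and adjusted p = 0.442, the smallest for ATG averaged over oxygen. For Spag17, 13.8% of windows are shared with the genes Wdr3 and Spag17os. The row Spag6 lay between 11.9 and 27.2 CPM, and since RefSeq holds this central pair gene under both Spag6 and Spag6l, no position is given.

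Tektins are filament proteins of the doublet microtubules. Tekt1 stood at 9.16, 9.92 and 5.81 CPM in ATG hyperoxia, at 7.62, 12.2 and 6.27 CPM in saline hyperoxia, at 10.9, 9.76 and 7.25 CPM in ATG room air and at 11.8, 11.1 and 10.9 CPM in saline room air. Tekt2 stood at 6.01, 4.15 and 6.601 CPM in ATG hyperoxia, at 5.71, 5.17 and 4.08 CPM in saline hyperoxia, at 7.497, 8.88 and 4.73 CPM in ATG room air and at 5.61, 5.15 and 7.16 CPM in saline room air. Tekt4, the lowest member, stood at 4.14, 5.44 and 2.51 CPM in ATG hyperoxia, at 8.23, 3.41 and 5.601 CPM in saline hyperoxia, at 3.68, 5.11 and 3.59 CPM in ATG room air and at 5.54, 4.65 and 3.96 CPM in saline room air. None of these separated the groups in any comparison, and the 95% interval of Tekt4 for ATG in hyperoxia was -1.25 to 0.21 on the log2 scale. Of the exon bases of Tekt2, 25.7% overlap Gm12945 on the opposite strand, and 12.7% of its windows are shared with that gene. As the counting's use of strand is not given, the level of Tekt2 is uncertain.

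The last members act in the ciliary shaft or with tubulin. Ak7, an adenylate kinase of cilia, stood at 22.5, 23.8 and 21.5 CPM in ATG hyperoxia, at 22.7, 23.6 and 19.5 CPM in saline hyperoxia, at 16.5, 20.7 and 16.4 CPM in ATG room air and at 16.8, 24.2 and 22.5 CPM in saline room air. After ATG every hyperoxia value lay above every room air value, a log2 fold change of 0.34 (SE 0.15) with unadjusted p = 0.0412 and adjusted p = 0.177. Tppp3 stood at 210.4, 269 and 213 CPM in ATG hyperoxia, at 276, 236 and 213 CPM in saline hyperoxia, at 266, 335 and 209.6 CPM in ATG room air and at 320.3, 275 and 274 CPM in saline room air. Hyperoxia values were mostly lower, with overlap after either injection; the averaged log2 fold change was -0.24 (SE 0.11), with adjusted p = 0.122, and without ATG room air 3 it was -0.31 and passed (adjusted p = 0.0342, over alternatives 0.0342 to 0.329).

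Aurothioglucose was compared with saline to ask whether the drug changes these genes, with and without oxygen exposure. In hyperoxia 0 of 32 members passed adjusted p 0.05, beside 0.00634% of all genes tested, and in room air 0 of 32, beside 0%. Averaged over oxygen 0 of 32 passed, beside 0.0444%. By DESeq2 no member passed in hyperoxia, in room air or in the average. Beside them stood 0.0699%, 0.132% and 0.609% of the 15736, 12080 and 15430 genes given an adjusted p by DESeq2. Tekt4 was given none in room air. At an unadjusted p under 0.05 stood 0 members in hyperoxia (5.69% of all genes), 5 in room air (6.02%) and 6 in the average (8.47%). In room air these were Dnah10, Dnah2, Rsph4a, Spag17 and Dnah9, all lower after ATG.

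The median log2 difference for ATG was -0.06 in hyperoxia, with 12 of 32 members positive, and -0.24 in room air, with 4 positive, while the medians over all genes were 0.00 and 0.01. The groups of 3 did not overlap for 2 members in hyperoxia (Spef2 higher, Rfx3 lower; 11.1% of all genes do not overlap) and for 6 in room air (Dnah9, Dnah2, Dnah10, Ccdc40, Rsph4a and Spag17, all lower; 12% of all genes). With 1 library left out the room air median ran from -0.33 (without ATG room air 2) to -0.14 (without ATG room air 3). The number of members at unadjusted p under 0.05 was 2 without ATG room air 3 (3.8% of all genes in the same fit), 3 without saline room air 3 (5.29%), 8 without ATG room air 1 (6.27%) and 9 without ATG room air 2 (7.91%). The hyperoxia median was -0.14 without ATG hyperoxia 2, 0.05 without saline hyperoxia 2 and 0.03 without ATG hyperoxia 3, so its direction rested on single libraries.

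Genes of alveolar type 2 cells, which make surfactant, lay the other way in room air. All 6 were higher after ATG, with a median log2 difference of 0.26. At unadjusted p under 0.05 stood 5 of them, beside 6.02% of all genes, and none passed the threshold. Their summed level was 12928 to 14605 CPM in ATG room air, against 10859.6 to 11535 CPM in saline room air, so the groups did not overlap. In hyperoxia their median difference for ATG was -0.01, and the sums were 13051 to 15121 CPM in ATG hyperoxia and 12909 to 13987 CPM in saline hyperoxia. For hyperoxia after saline 4 of the 6 rose (median 0.26), where 9.19% of all genes were called in either direction. After ATG none passed (median -0.06), where 11.7% of all genes were called. In room air the sum of 6 genes shared by epithelial cells was 825 to 926 CPM after ATG and 769 to 837 CPM after saline. That of 6 alveolar type 1 genes was 1768 to 2038 and 1539 to 1900 CPM. Both sums averaged higher after ATG, with overlap. Those of basal airway and neuroendocrine genes averaged lower after ATG, and that of club and secretory genes averaged 15736 and 15690 CPM. The part of these cells in the cilia values was not tested.

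**Figure D3:**
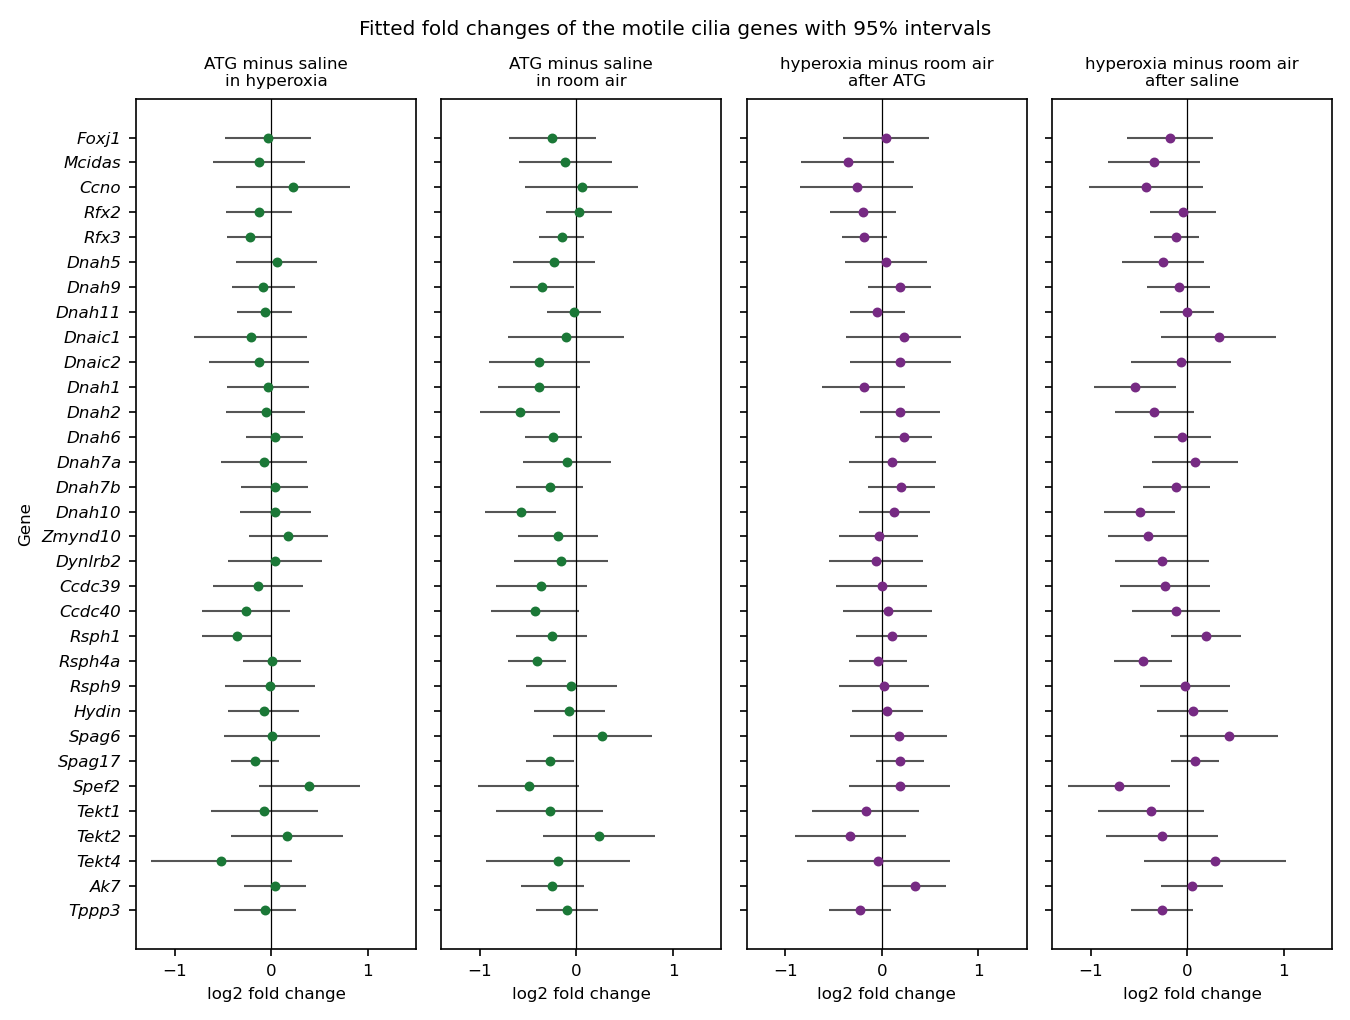
Fitted log2 fold changes of the 32 motile cilia genes (points) with their 95% intervals (lines), for ATG minus saline and for hyperoxia minus room air. No gene passed adjusted p 0.05 in any panel; in room air 28 of the 32 points for ATG lie below 0.

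The second question was what high oxygen does to the same genes. After ATG 0 of 32 members passed, beside 11.7% of all genes tested, and after saline 0 of 32, beside 9.19%. Averaged over injections 0 of 32 passed, beside 22.4%. By DESeq2 the counts were 0 (15.6% of the genes given an adjusted p), 1 (Rsph4a, beside 12.3%) and 0 (24.9%). By edgeR's test 1 member stood at an unadjusted p under 0.05 after ATG (Ak7, higher, beside 25.1% of all genes). After saline 4 did (Rsph4a, Dnah10, Spef2 and Dnah1, all lower, beside 22.7%). In the average 4 did (Dnah1, Rsph4a, Tppp3 and Mcidas, all lower, beside 34.5%). The members' share of calls lay below that of all genes in each of these contrasts.

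The median log2 fold change for hyperoxia was 0.05 after ATG, with 18 of 32 members positive, and -0.11 after saline, with 8 positive, and medians over all genes were 0.00 in both. The groups of 3 did not overlap for 1 member after ATG (Ak7, higher; 27.6% of all genes do not overlap) and for 7 after saline (Ccno, Dnah9, Dnah1, Dnah10, Zmynd10, Rsph4a and Spef2, all lower; 29.5%). The median after ATG was -0.11 without ATG room air 3 and -0.10 without ATG hyperoxia 2. After saline it was -0.24 without saline hyperoxia 2, with 7 members at unadjusted p under 0.05 (21.2% of all genes in the same fit). Without both heart-rich libraries, ATG hyperoxia 2 and saline hyperoxia 2, Dnah10 (log2 fold change -0.67, adjusted p = 0.0174) and Rsph4a (-0.51, adjusted p = 0.0307) passed after saline. Leaving out saline hyperoxia 1, the muscle-rich library, as well leaves that group with 1 library, assumed to vary like the other groups, and this library held the lowest Dnah1 value of the 12.

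The difference between the ATG effects in hyperoxia and in room air was tested as an interaction. No member passed, beside 0% of all genes by edgeR and 0% by DESeq2, and 2 members stood at unadjusted p under 0.05 by edgeR (2.95% of all genes). The median was 0.19 over the members, with 23 of 32 positive, and -0.01 over all genes; it was 0.06 without ATG room air 3 and 0.32 without saline hyperoxia 2. The data bounded most differences: the 95% interval lay within a 2-fold change in either direction for 31 of 32 members for ATG in hyperoxia (not Tekt4) and 31 in room air (not Spef2). It did so for 32 members for hyperoxia after ATG and for 29 after saline (not Spef2, Ccno and Tekt4). For the interaction it did so for 28 (not Spef2, Dnah10, Dnah2 and Tekt4). These intervals reflect only the spread among these libraries, which may be technical.

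The libraries differed in the cilia genes within groups as well as between them. Without Tppp3, the summed level of the other 31 members stood at 717, 834 and 667 CPM in ATG hyperoxia, at 759.7, 854 and 698 CPM in saline hyperoxia, at 798, 767 and 592 CPM in ATG room air and at 807, 851 and 868 CPM in saline room air. The lowest of the 12 was ATG room air 3, and the saline room air libraries were the closest together. ATG room air 3 was the lowest of its group for 29 of 32 members, and for 31.4% of all genes tested. It lay below its group's mean for 30 of 32 members, whereas 48.0% of all genes tested lay below their group's mean there. It was the lowest of the 12 libraries for 16 members, and for 9.28% of all genes. In hyperoxia, ATG hyperoxia 2 was the highest of its group for 23 members (37.1% of all genes) and saline hyperoxia 2 for 21 (35.1%). ATG hyperoxia 3 was the lowest of its group for 20 (32.8%) and saline hyperoxia 3 for 21 (32.3%). Over all genes, ATG hyperoxia 2 was most often the extreme library, lowest of the 12 for 13.4% and highest for 13.9%.

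The members moved together across libraries to unequal degrees. Each member's log2 CPM, less its group mean, was set against the mean of the other members over the 12 libraries, which share depth and scaling. Pearson's r ran from 0.06 (Rfx3) to 0.92 (Ccdc40), with a median of 0.63, and 21 of 32 members exceeded 0.5. The members most like the rest were Ccdc40, Rsph4a (0.90), Zmynd10 (0.89) and Dnah6 (0.88). Intraflagellar transport genes, which build motile and primary cilia alike, varied less: the pooled SD of their mean log2 CPM within groups was 0.06, against 0.17 for the members.

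Outside the list, the 10 genes whose deviations were most like the members' mean were Spats2 (r = 0.97), Scgb3a2 (0.95), Lad1 (0.95), Ccdc146 (0.95), Mrpl27 (0.95), Cdhr3 (0.95), Kif9 (0.94), Map3k19 (0.93), Dhx37 (0.93) and Dtd2 (0.93), of 14551 genes with a mean of at least 1 CPM. Cdhr3 is a cadherin of ciliated airway cells, and Scgb3a2 is a secretoglobin of airway secretory cells.

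**Figure D4:**
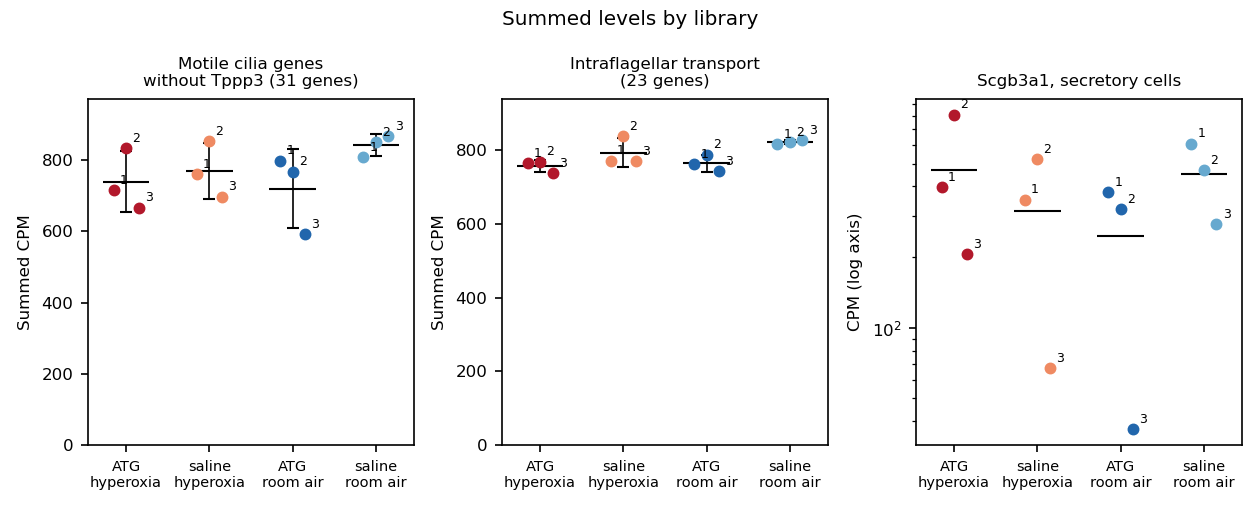
Summed CPM per library of 31 motile cilia genes (left) and of 23 intraflagellar transport genes (middle), with the mean and SD of each group of 3, and CPM of the secretory gene Scgb3a1 on a log axis with the mean (right). ATG room air 3 is lowest for the cilia genes and for Scgb3a1, at 37.0 CPM.

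Some genes of airway secretory cells were lowest in the same library as the summed cilia genes, ATG room air 3, and others were not. Scgb3a2, picked above for its likeness to the members, stood at 849, 1249 and 828 CPM in ATG hyperoxia, at 798, 1135 and 575 CPM in saline hyperoxia, at 953, 974 and 447 CPM in ATG room air and at 1004, 927 and 891 CPM in saline room air. Muc5b, the mucin of airway glands and surface cells, stood at 368, 1311 and 203 CPM in ATG hyperoxia, at 321, 685 and 87.8 CPM in saline hyperoxia, at 696, 186 and 58.9 CPM in ATG room air and at 599, 393 and 435 CPM in saline room air. Scgb3a1, a secretoglobin of the larger airways, stood at 398, 809 and 206 CPM in ATG hyperoxia, at 351, 522 and 67.2 CPM in saline hyperoxia, at 379, 319.5 and 36.95 CPM in ATG room air and at 608, 469 and 276 CPM in saline room air. For all 3 genes ATG room air 3 held the lowest and ATG hyperoxia 2 the highest value, and saline hyperoxia 3 held the second lowest. Of the 10 markers of club and secretory cells, all 10 were the lowest of their group in ATG room air 3. In ATG hyperoxia 2, 8 were the highest of their group and 2 the lowest, among them Scgb1a1, which was lowest of the 12 libraries there. In saline hyperoxia 2, 5 were the highest and 4 the lowest of their group, and in saline hyperoxia 3, 2 were the highest and 6 the lowest. All 10 were in the table and none was at 0 in any library; their summed level was 12520.0 to 14273 CPM in ATG hyperoxia, 11225 to 13329.9 CPM in saline hyperoxia, 11705 to 20393 CPM in ATG room air and 12841 to 18416 CPM in saline room air. In saline room air 1, 2 and 3 that sum was 18416, 15814 and 12841 CPM, the reverse order of the sum of the cilia genes without Tppp3. Scgb3a2 and Scgb3a1 fell in that reverse order too. The part of airway content in the differences between groups was not tested.

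Cilia genes outside the list, 105 tested in 6 lists, gave the wider view. For ATG none passed in hyperoxia, in room air, in the average or in the interaction, by edgeR's test. At unadjusted p under 0.05 stood 2 in hyperoxia (1.9%, against 5.69% of all genes), 14 in room air (13.3%, against 6.02%), 15 in the average (14.3%, against 8.47%) and 9 in the interaction (8.57%, against 2.95%). Those in hyperoxia and room air were all lower after ATG, as were 14 of the 15 in the average, and 8 of the 9 interaction values were positive. These counts come from the same 12 libraries and are not given with single libraries left out. ATG room air 3 had the lowest summed level of the 12 for radial spoke, ruler and nexin link genes. It did so too for central pair and doublet wall genes and for other ciliated cell markers. The lowest library was saline hyperoxia 3 for dynein assembly and docking, ATG hyperoxia 2 for multiciliated fate and ATG hyperoxia 3 for intraflagellar transport. For hyperoxia after ATG 3 of the 105 rose, 4 fell and 98 did not pass, a share of 6.67% called against 11.7% of all genes. After saline 0 rose, 7 fell and 98 did not pass (6.67%, against 9.19%), and in the average 5 rose, 12 fell and 88 did not pass (16.2%, against 22.4%). The medians were -0.04 after ATG, -0.14 after saline and -0.09 in the average. By list in the average, 3 of 16 dynein assembly and docking genes fell, 3 of 22 central pair and doublet wall genes rose and 3 fell, and 0 of 11 radial spoke, ruler and nexin link genes passed. Of 14 genes of multiciliated fate and centriole amplification 2 fell, of 19 other ciliated cell markers 1 rose and 2 fell, and of 23 intraflagellar transport genes 1 rose and 2 fell.

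Mns1, a filament protein inside the doublet microtubules, fell after both injections. It stood at 10.04, 8.02 and 9.21 CPM in ATG hyperoxia, at 8.39, 13.6 and 8.28 CPM in saline hyperoxia, at 20.5, 16.95 and 19.7 CPM in ATG room air and at 16.4, 21.3 and 24.2 CPM in saline room air. Every hyperoxia value lay below every room air value, with log2 fold changes of -1.07 (SE 0.21) after ATG and -1.04 (SE 0.20) after saline (adjusted p = 0.0035 and 0.00607). Plk4, the kinase that starts centriole duplication in dividing cells as well as centriole amplification, fell too. It stood at 30.6, 25.3 and 32.2 CPM in ATG hyperoxia, at 28.6, 38.5 and 34.1 CPM in saline hyperoxia, at 63.7, 48.7 and 64.02 CPM in ATG room air and at 48.7, 55.1 and 70.8 CPM in saline room air. Its log2 fold changes were -1.0 (SE 0.16) after ATG and -0.79 (SE 0.16) after saline (adjusted p = 0.00104 and 0.00679). Both genes passed in all 19 alternatives in each comparison.

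The genes that rose in hyperoxia included Cfap45 and Cfap161, proteins of the ciliary axoneme listed in the count table as Ccdc19 and 1700026D08Rik. Cfap45 stood at 27.1, 28.3 and 18.6 CPM in ATG hyperoxia, at 22.3, 26.3 and 20.9 CPM in saline hyperoxia, at 13.9, 14.8 and 8.44 CPM in ATG room air and at 13.96, 14.6 and 17.8 CPM in saline room air. Its log2 fold change was 1.0 (SE 0.21) after ATG (adjusted p = 0.00648) and 0.59 (SE 0.21) after saline, where it did not pass (adjusted p = 0.0995). Cfap161 stood at 25.98, 24.7 and 25.5 CPM in ATG hyperoxia, at 29.2, 25.9 and 25.3 CPM in saline hyperoxia, at 17.4, 14.9 and 12.8 CPM in ATG room air and at 20.3, 23.6 and 16.8 CPM in saline room air. Its values were 0.76 (SE 0.15) after ATG (adjusted p = 0.00365) and 0.40 (SE 0.15) after saline (adjusted p = 0.103). The averaged log2 fold changes were 0.79 (SE 0.15) and 0.58 (SE 0.10), and both calls after ATG and in the average held in all alternatives.

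**Figure D5:**
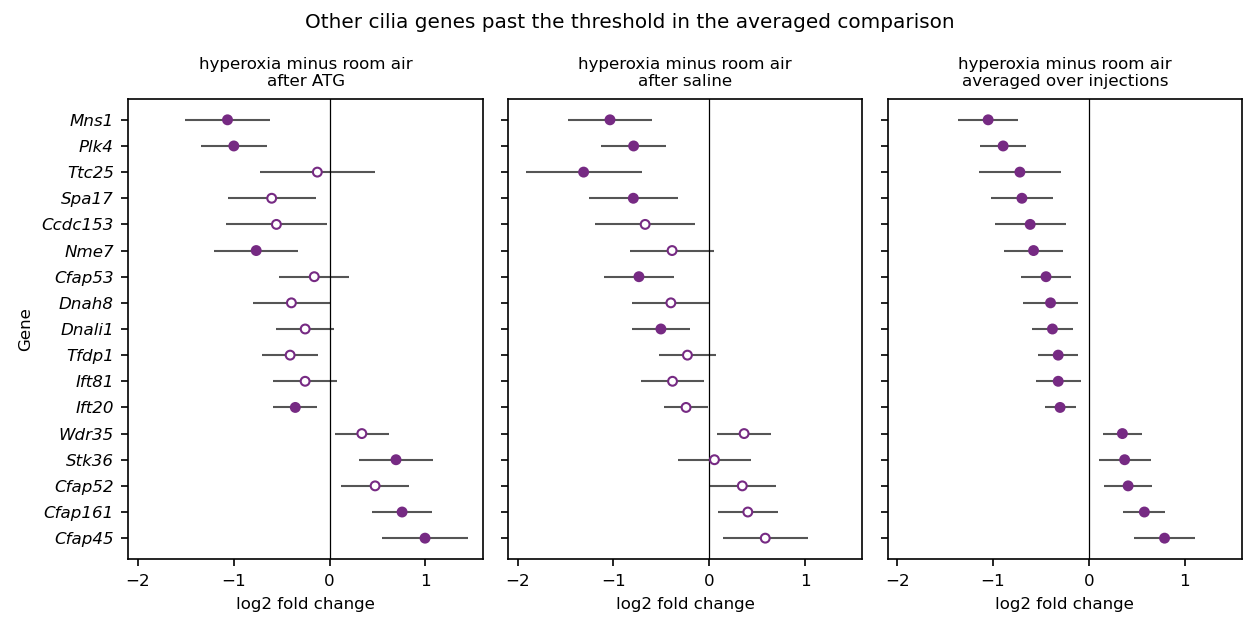
Log2 fold changes with 95% intervals of the 17 cilia genes outside the list that passed adjusted p 0.05 for hyperoxia averaged over injections, with the values after ATG, after saline and in the average (filled points passed in that panel). Mns1 and Plk4 are filled on the left of 0 in all 3 panels, and Cfap161 and Cfap45 lie on the right.

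Other calls after a single injection rested on fewer settings. After saline Ttc25, an outer arm docking factor, fell by 1.31 on the log2 scale (adjusted p = 0.00975), but not past the threshold without saline room air 3 (0.055) or saline hyperoxia 3 (0.0502), over alternatives 0.000471 to 0.055. Cfap53 fell by 0.73 (15 of 19 alternatives kept the call), Spa17 by 0.79 (12 of 19), Dnali1, an inner arm light chain, by 0.50 (13 of 19) and Lrrc6, a dynein assembly factor, by 0.62 (6 of 19). After ATG Stk36, a kinase needed for the central pair, rose by 0.69 (17 of 19), Nme7 fell by 0.77 (15 of 19) and Ift20, an intraflagellar transport protein, fell by 0.36 (3 of 19). In the average Wdr35 rose by 0.35 (18 of 18), while Ccdc153 fell by 0.61 (16 of 18), Dnah8 by 0.40 (8 of 18), Tfdp1 by 0.32 (11 of 18) and Ift81 by 0.32 (3 of 18). Spa17, Dnali1, Nme7 and Ift20, named above for a single injection, kept their calls in the average in 18 of 18 alternatives. Cfap53 and Ttc25 did so in 17 and Stk36 in 5.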

How the data were processed

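RNA-seq was done on lungs of newborn mice after lavage fluid was removed, in 4 groups of 3 libraries. Total RNA was amplified to cDNA with an Ovation kit, made into Nextera XT libraries and read as 75 bp pairs, per the labels' protocols. The authors deposited raw counts per gene symbol, not normalized; per the submitters' processing notes the work used Bowtie2, Cufflinks, DESeq and the mm10 build, with no version stated. How reads were counted, by strand or with several matches, is not given in the sources used here.

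Columns and groups were matched by their labels. No replicate pair agreed within sampling noise (chi-square per degree of freedom 6.27 to 37.2). Genes kept by filterByExpr (minimum count 10, minimum total 15) held 99.96% of counts. They were scaled by TMM and fitted over 12 samples with 1 mean per group by edgeR 4.0.16's quasi-likelihood test (R 4.3.3), leaving 8 residual degrees of freedom. Tests were two-sided. An adjusted p (Benjamini-Hochberg) under 0.05 counted as a call. The code was tested on simulated counts. Alternatives were DESeq2 1.42.0, RLE size factors, no filter, a replicate block, the 6 samples compared alone, each library left out, and the libraries rich in heart or muscle left out, which leaves saline hyperoxia with 1 library.

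The members and lists were chosen with earlier results of these data known. Values in every library are given for fixed members of each role and for the 3 with the largest change in each contrast. Outside the list, genes past the threshold are named, at most 4 per list and contrast, with the 10 genes most like the members' mean. Positions and promoters are from RefSeq GRCm38.p6, the assembly that mm10 names, and exon overlaps, lengths and shared 75-base windows from GENCODE M21. Symbols that differ from current names were matched by RefSeq synonym for 18 of 107 other cilia genes.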

Additional observations from a re-analysis of the deposited data

How the results depend on the processing

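The count of members past the threshold was 0 in every main contrast and stayed 0 in all alternatives for aurothioglucose in hyperoxia, in room air and averaged, for hyperoxia after ATG and for the interaction. For hyperoxia after saline it was 1 by DESeq2, without the filter, with the replicate block and with the 6 samples compared alone (Rsph4a in each), 2 without the libraries rich in heart transcripts and 1 (Dnah1) without those rich in heart or muscle, a setting that leaves saline hyperoxia with 1 library, assumed to vary like the other groups, so that its values do not bear on stability. Leaving out 1 library gave 0 to 1 there (Rsph4a without ATG room air 3 or ATG hyperoxia 2, Dnah10 without saline hyperoxia 2). For hyperoxia averaged over injections it was 1 without the heart-rich libraries (Rsph4a) and 3 in that setting with 1 library (Dnah1, Rsph4a and Tppp3). Leaving out 1 library gave 0 to 2 (Rsph4a and Tppp3 without ATG room air 3, Dnah1 without saline hyperoxia 1, Mcidas without saline hyperoxia 2, Rsph4a without ATG hyperoxia 2). The cause of these changes was not tested. The members' median log2 fold change moved by less than the spread between replicates in every alternative. Leaving out 1 library of 3 can hardly move it by more than that spread, so this does not show stability. With single libraries left out the median ran from -0.14 to 0.05 for ATG in hyperoxia, from -0.11 to 0.15 for hyperoxia after ATG and from -0.13 to 0.02 for hyperoxia averaged.

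Over all genes, DESeq2 called 11, 16 and 94 genes for ATG in hyperoxia, in room air and averaged, against 1, 0 and 7 by edgeR, which called 3 and 24 in hyperoxia and averaged without the filter. RLE scaling and the replicate block each gave 3 in the average. With single libraries left out, counts were 0 to 2 for ATG in hyperoxia, 0 to 1 in room air, 0 to 24 averaged, 1150 to 2045 for hyperoxia after ATG (1838 with all) and 740 to 1704 after saline (1449 with all). With saline hyperoxia 3 as the only library of its group (heart- and muscle-rich libraries left out), 781 were called after saline and 0 for ATG averaged; without the heart-rich ones, 0 for ATG in hyperoxia and 2 averaged. Whether replicate numbers pair the samples is not known. Over all genes, same-numbered libraries of different groups had correlations of -0.156 to 0.28, and 5 of 12 libraries were closest to their own number. That check cannot exclude pairing. The members' mean log2 CPM, less its group mean, differed by number. In library 2 of ATG room air, saline hyperoxia and ATG hyperoxia it was 0.18, 0.15 and 0.15. In library 3 of those groups it was -0.30, -0.14 and -0.15, and in saline room air 2 and 3 it was 0.004 and 0.02. With 3 libraries a group, the median standard error of a member's log2 difference was 0.20 in a comparison of groups.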
